A study of Homo sapiens with 16 samples.

Results

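The genes described here encode proteins that keep chromatin silent once silencing has been set up: SMCHD1, the macroH2A histones H2AFY and H2AFY2, the DNA methyltransferases DNMT1, DNMT3A and DNMT3B with their guide UHRF1, and the chromodomain protein CDYL. They were chosen by name as a list of 8 genes out of 22892 genes in the HiSeq expression table and 25606 genes in the NextSeq table, and all 8 were listed in both. Their mRNA was measured by poly(A) RNA sequencing in 10 libraries of HT1080, a human fibrosarcoma cell line, in which an XIST cDNA under a doxycycline (DOX)-inducible promoter had been placed by FRT recombination on chromosome arm 1p, 8p or 12q. All lines carried a Tet repressor that represses the transgene without DOX. Some XIST was still read without DOX (values below), so the No DOX libraries are a baseline of low XIST. The HiSeq table held 1 library of the 8p line without DOX, 2 of 8p with DOX, and 1 each of 1p XIST, 12q XIST and a 1p line with the empty vector (pcDNA5), all 3 with DOX. The NextSeq table held 1 library each of 1p and 12q without and with DOX. DOX was given for 5 days.

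Some limits of these lines as a model bear on every value. The 1p and 8p lines came from one Tet repressor subclone of HT1080 and the 12q line from another, so integration site, clone and subclone cannot be told apart. Per the study's methods the 8p DOX libraries came from 2 clones and form a biological duplicate. The 8p No DOX library came from 1 clone, which the labels do not match to either DOX library, so the DOX difference in 8p can also hold a difference between clones; 8p line is used here for both. No empty-vector library without DOX was included, and the effect of DOX alone was not tested. XIST checked the labels. It was at 3.38 FPKM (fragments per kilobase of transcript, scaled to the mapped fragments of the library) in 8p without DOX against 99.0 and 89.7 with it, and at 0.0705 with the vector. It was at 23.8 in 1p DOX and 61.9 in 12q DOX of the HiSeq table, and in the NextSeq table it stood at 4.17 without and 21.9 with DOX in 1p and at 3.75 and 67.6 in 12q. Mesenchymal genes were high in all 10 libraries, with all 8 listed markers at 1 FPKM or more and VIM at 1644 or more. The 5 blood cell markers summed to at most 0.228 FPKM in any library, with PTPRC at 0. The endothelial cadherin CDH5 was at 7.05 and 5.71 FPKM in 12q No DOX and 12q DOX of the NextSeq table and at 5.44 in the HiSeq 12q library, against 0.836 or less elsewhere, while KDR did not pass 0.0566. The 7 epithelial markers summed to 0.321 to 2.96 FPKM in 9 libraries, most of it CLDN4, and to 6.57 in the NextSeq 12q DOX library, which stood apart: EPCAM was at 2.38, CDH1 at 1.38 and ESRP1 at 0.719 there, against 0.0497 or less in the others. The files give no counts, so sequencing depth is unknown. The 2 tables were made from separate runs and reads of different length, and differences were taken within a table only.

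On the inactive X chromosome, XIST RNA coats the chromosome first and histone marks of silent chromatin follow. A later layer makes the silent state stable. SMCHD1, an unusual member of the SMC ATPase family, is recruited and is needed for methylation of many X-linked CpG islands; macroH2A, a histone H2A variant with a large globular domain, accumulates there; and DNA methylation at promoters is copied to the new strand at each replication by DNMT1, which UHRF1 brings to hemimethylated sites. DNMT3A and DNMT3B place new methylation. CDYL binds methylated histone H3 and works with Polycomb and H3K9 methyltransferases.

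SMCHD1, DNMT1 and UHRF1 were the members that fell with DOX in the 8p line, and the bases around their transcription starts are shown here so that they can be set beside one another. The windows run from 170 bases before to 30 bases from the start, 5′ to 3′ on the strand of the gene, from RefSeq on GRCh38.p14. Capitals mark a match, on either strand, to letters bound by E2F, the transcription factor family of S phase genes (TTTCCCGC, TTTGGCGC, TTTCGCGC or TTTGCCGC); these letters were chosen after the expression values were seen.
UHRF1, first start, chr19:4909331-4909530, plus strand: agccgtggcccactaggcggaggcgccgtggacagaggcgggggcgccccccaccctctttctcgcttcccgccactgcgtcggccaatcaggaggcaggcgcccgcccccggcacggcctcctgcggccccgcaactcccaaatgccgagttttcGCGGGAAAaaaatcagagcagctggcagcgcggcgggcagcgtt
UHRF1, second start, chr19:4909974-4910173, plus strand: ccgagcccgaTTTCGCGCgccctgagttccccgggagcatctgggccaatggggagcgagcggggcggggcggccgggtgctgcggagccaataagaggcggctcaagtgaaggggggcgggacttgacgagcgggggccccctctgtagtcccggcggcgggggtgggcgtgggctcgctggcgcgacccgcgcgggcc
DNMT1, chr19:10194924-10195123, minus strand: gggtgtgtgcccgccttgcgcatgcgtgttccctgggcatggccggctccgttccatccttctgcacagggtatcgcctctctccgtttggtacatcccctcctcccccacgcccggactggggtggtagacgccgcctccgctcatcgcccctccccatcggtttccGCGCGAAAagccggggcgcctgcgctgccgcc
SMCHD1, chr18:2655556-2655755, plus strand: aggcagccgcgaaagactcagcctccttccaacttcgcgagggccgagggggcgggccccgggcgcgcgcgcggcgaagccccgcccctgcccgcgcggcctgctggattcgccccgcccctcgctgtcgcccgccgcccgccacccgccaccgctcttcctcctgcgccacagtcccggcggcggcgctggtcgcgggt

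All 8 members had at least 1 window of 250 bases before and 50 from the start in the RefSeq table. The E2F letters stood in 2 of the 3 windows of UHRF1, beginning 14 and 160 bases before the start, and in the window of DNMT1, beginning 2 bases before the start and reaching across it. No window of the other 6 members held them. Of all 35116 windows of this length 3.31% held them, and 10 of the 17 genes with a window in a list of 20 S phase and proliferation genes had a window that did. The SMCHD1 window held 4 copies of the GC box GGGCGG on either strand, which 45.0% of all windows hold at least once. It also held 44 CpG dinucleotides against a median of 14. Other members had similar windows, with up to 42 CpG in H2AFY, 46 in DNMT3A and UHRF1 and 43 in CDYL. The highest count was 30 in DNMT1, 22 in H2AFY2 and 3 in DNMT3B. A CDYL window held 8 GC boxes. A match is a description of the letters and was not tested as a binding site.

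In the level of their mRNA the members spanned a wide range. In the 8p DOX pair, H2AFY, which encodes macroH2A1, stood at 114 ± 3.37 FPKM (SD, n = 2), DNMT1 at 45.5 ± 2.11, UHRF1 at 15.9 ± 0.536 and SMCHD1 at 9.86 ± 0.538. CDYL followed at 9.39 ± 0.171, DNMT3B at 3.76 ± 0.0847 and DNMT3A at 3.17 ± 0.306. The libraries of each neighbour in this order did not overlap, except those of SMCHD1 and CDYL. Over the 6 HiSeq libraries, the average of H2AFY was above that of 95.0% of the 11357 genes that averaged 1 FPKM or more, that of SMCHD1 above 53.2% and that of DNMT3A above 18.6%. Per length, DNMT1 and UHRF1, the pair that copies methylation, stood above the de novo enzymes DNMT3A and DNMT3B in all 10 libraries.

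H2AFY2, which encodes macroH2A2, was listed at 0 in all 6 HiSeq libraries and at 0.0610, 0.0334, 0 and 0.182 FPKM in 1p No DOX, 1p DOX, 12q No DOX and 12q DOX in the NextSeq libraries. It did not pass the filter of an average of 1 FPKM in either table, and the other 7 members passed in both. The values are per gene and do not separate the splice forms of H2AFY.

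**Figure D1:**
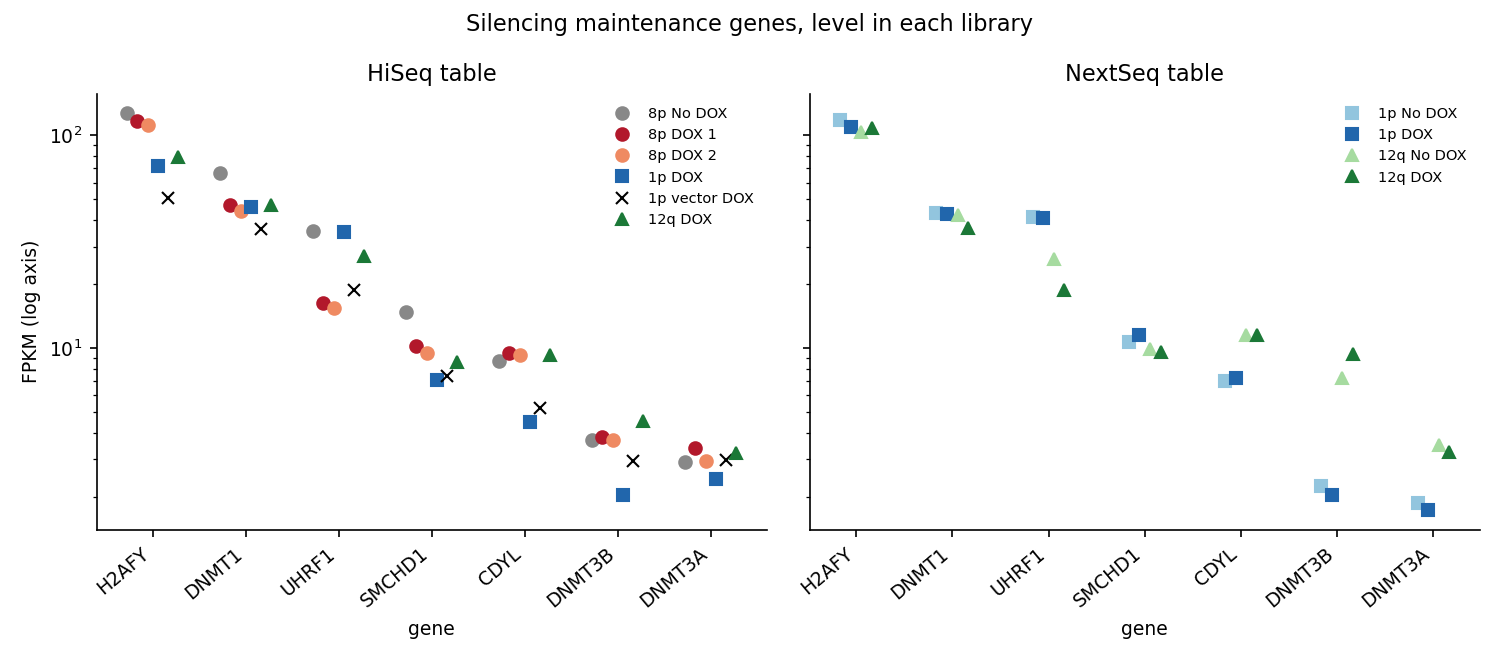
FPKM of the 7 members above the filter (log axis) in each of the 6 HiSeq libraries (left) and 4 NextSeq libraries (right), 1 point per library. The grey 8p No DOX point of SMCHD1 lies at 14.7, above the other 5 HiSeq libraries, and the 12q points of DNMT3B in the NextSeq panel lie at 7.25 and 9.37, above the 1p points at 2.26 and 2.04.

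The first comparison asked which members change when XIST is induced in the 8p line. UHRF1, DNMT1 and SMCHD1 fell, by 55.4%, 31.7% and 33.2% of their FPKM, and H2AFY, CDYL, DNMT3A and DNMT3B did not pass the test. Thus 3 of 7 tested members were called lower by limma at an adjusted p under 0.05, where 19.8% of all 11357 genes were called lower, and 0 of 7 were called higher, where 11.3% were. The spread in this test came from the 8p DOX pair and the lone No DOX library was assumed to vary like it. After rescaling the libraries by the median ratio of their genes, 55.0% of all calls were higher in place of 36.4%, and without the filter on low genes 15 genes and no member were called.

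UHRF1 was at 35.5 FPKM in 8p No DOX and at 16.2 and 15.5 in 8p DOX. The No DOX level was far above both DOX libraries, which lay close together, and the difference was -1.12 on the log2(FPKM + 1) scale (SE 0.0759, limma adjusted p = 0.0154). Only 0.872% of genes had a lower difference.

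DNMT1 was at 66.6 FPKM without DOX and at 47.0 and 44.0 with it. The difference was -0.54 (SE 0.0812, limma adjusted p = 0.0212). The ratio of UHRF1 to DNMT1 FPKM was 0.533 in the No DOX library and 0.345 and 0.351 in the DOX libraries, so UHRF1 fell further than the enzyme it guides; this ratio was not tested.

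SMCHD1 was at 14.7 FPKM without DOX and at 10.2 and 9.48 with it. The No DOX library was above both, with a difference of -0.54 (SE 0.0846, limma adjusted p = 0.0225). SMCHD1 and DNMT1 fell in step, and SMCHD1 over DNMT1 FPKM was 0.221 without DOX and 0.218 and 0.215 with it.

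H2AFY was at 127 FPKM without DOX and at 117 and 112 with it, lower in both DOX libraries by a small step. The difference of -0.15 had a 95% interval of -0.36 to 0.06 (limma adjusted p = 0.199). CDYL was at 8.74 against 9.51 and 9.26, with a difference of 0.09 (interval -0.11 to 0.30).

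The de novo methyltransferases stayed near their starting levels. DNMT3A was at 2.92 FPKM without DOX and at 3.38 and 2.95 with it, and the interval of its difference was -0.18 to 0.35. DNMT3B was at 3.69 against 3.82 and 3.70, and the interval of its difference was -0.18 to 0.23.

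These falls rest on 1 No DOX library. Against the other 3 HiSeq DOX libraries in its place, UHRF1 in the 8p DOX pair was still lower (-0.69, limma adjusted p = 0.184), whereas SMCHD1 was higher (0.33, adjusted p = 0.240) and DNMT1 stood at 0.08, with a median of all genes of 0.19, and none of the 3 was called. Over the 7 alternatives that allowed a test, 5 called each of the 3, with limma adjusted p values of 0.000193 to 0.184 for UHRF1, 0.00309 to 0.797 for DNMT1 and 0.00305 to 0.240 for SMCHD1. Over all genes tested, the share with a lower difference was 0.872% for UHRF1, 8.02% for SMCHD1 and 7.92% for DNMT1. Neighbours on the chromosome were counted in the same way, and the gap from these shares was not tested. Of 254 tested genes within 10 Mb of UHRF1, which lies on chromosome 19 at 4860509 to 4913165 (hg18), 4 had a lower difference, and of 39 genes near SMCHD1 (chromosome 18, 2645885 to 2795015) 3 had. DNMT1, on chromosome 19 at 10105021 to 10166755, had 38 of 329 neighbours below it. No member lies on chromosome 1, 8 or 12.

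Genes of DNA replication fell in the same libraries. Of 20 S phase and proliferation genes, 19 were called lower and 0 higher, where 19.8% and 11.3% of all genes were. Their median difference was -0.85 against -0.06 over all genes tested. CCNE2, the cyclin E2 of S phase entry, was at 6.97 FPKM without DOX and at 1.23 and 1.55 with it (-1.74, limma adjusted p = 0.0148). GINS2, a subunit of the replicative helicase, changed by -1.37, the origin licensing factor CDC6 by -1.37 and E2F1, a transcription factor of S phase genes, by -1.29, with adjusted p values of 0.0148 to 0.0152. The summed FPKM of the 20 genes was 1192 in 8p No DOX and 743 and 698 in 8p DOX. In bulk libraries fewer cells in S phase and less RNA per cell cannot be told apart, and the part of these genes in the falls of UHRF1, DNMT1 and SMCHD1 was not tested. With the other HiSeq DOX libraries as the baseline, 15 of the 20 lay below 0, 1 was called, and the median was -0.43.

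**Figure D2:**
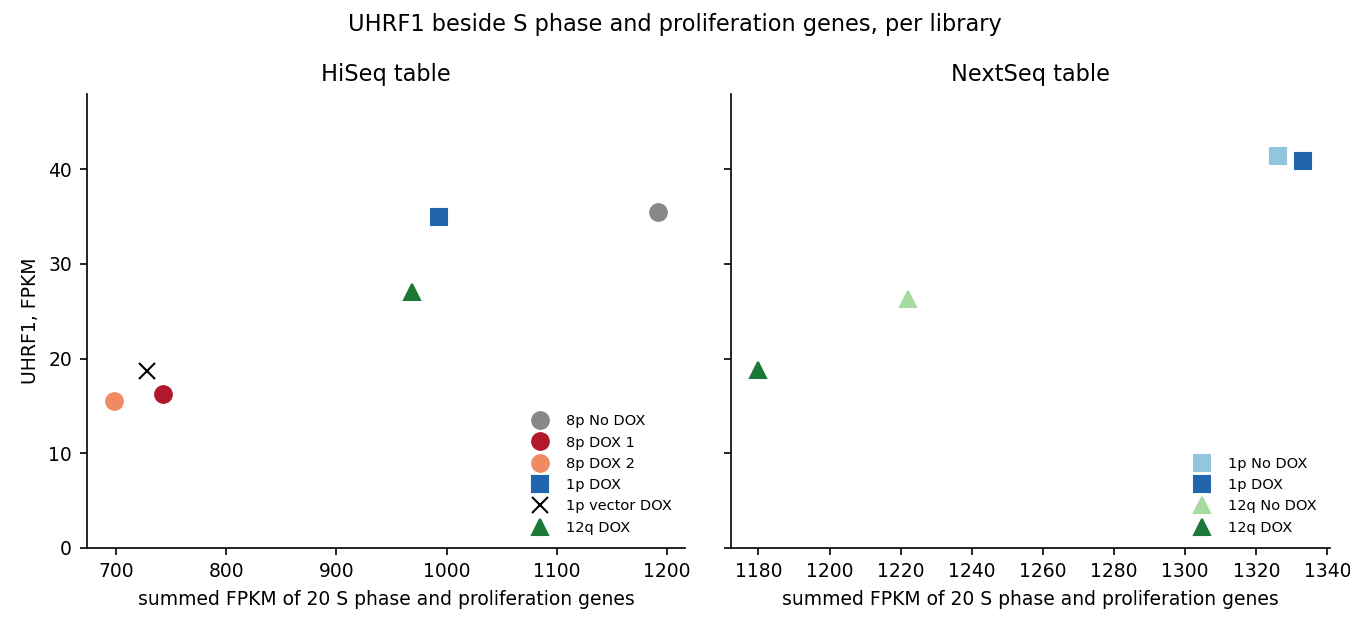
UHRF1 level (FPKM, vertical) against the summed FPKM of 20 S phase and proliferation genes (horizontal), 1 point per library, HiSeq on the left and NextSeq on the right. UHRF1 lay at 15.5 to 18.7 in the 3 HiSeq libraries with sums of 698 to 743 and at 27.05 to 35.5 in the 3 with sums of 969 to 1192; both 12q NextSeq points lie below and left of both 1p points.

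Genes that work with the members were called too, where 19.8% of all 11357 genes were called lower and 11.3% higher. With the other HiSeq DOX libraries as the baseline, 0 genes of any partner list, here and below, were called. Among 15 tested DNA methylation partners, 5 were called lower and 1 higher (median -0.19). HELLS, a chromatin remodeller needed for DNA methylation, was at 14.5 FPKM without DOX and at 6.93 and 6.81 with it (-0.98, limma adjusted p = 0.0158). Its partner CDCA7 fell from 20.0 to 12.4 and 13.0 (-0.62), and PCNA, the replication clamp that DNMT1 binds, from 186 to 99.4 and 95.8 (-0.93). MBD3, of the NuRD complex, changed by -0.69 and the zinc finger protein ZBTB24 by -0.35, while UHRF2, the paralogue of UHRF1, rose from 10.3 to 14.4 and 13.1 (0.39, adjusted p = 0.0432).

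Of 14 genes for H3K9 methylation and HP1, 7 were called lower and 0 higher (median -0.37). The H3K9 methyltransferase SUV39H1 was at 3.87 FPKM without DOX and at 1.82 in both DOX libraries (-0.79). All 3 HP1 genes were among the 7, with CBX1 at -0.53, CBX5 at -0.43 and CBX3 at -0.41. LRIF1, which links SMCHD1 to HP1, was at 6.13 FPKM without DOX and at 6.97 and 7.56 with it and was not called.

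Among 10 genes for other histone variants and for handling of macroH2A, 7 were called lower and 0 higher (median -0.46). H2AFX, the variant phosphorylated at DNA breaks, was at 112 FPKM without DOX and at 39.2 and 39.7 with it (-1.48, limma adjusted p = 0.0124). H2AFZ changed by -0.87 and the H3.3 gene H3F3B by -0.64. H3F3A, the other H3.3 gene, had a difference of -1.22 but was listed at 7.4e-05 FPKM in 1p DOX of the same table, and near-identical copies make its value uncertain. The difference of H2AFY was smaller than those of these histone genes, and the gap itself was not tested.

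Polycomb and XIST-associated genes were called lower more often than higher, as were all genes (19.8% and 11.3%). Of 22 Polycomb genes, 8 were called lower and 3 higher (median -0.27), led by EZH2, the H3K27 methyltransferase (-0.79), BMI1 (-0.70), SUZ12 (-0.58) and PHF19 (-0.58). Of 14 XIST-binding and inactive X-associated genes, 6 were called lower and 1 higher (median -0.28). HNRNPU, a nuclear matrix protein, had a difference of -0.57, RBM15B -0.44 and ASH2L -0.41, and SATB1 rose by 0.46. With the other HiSeq DOX libraries as the baseline, 15 of the 22 Polycomb and 6 of the 14 XIST-associated genes lay above 0. The median of all genes was then 0.19.

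**Figure D3:**
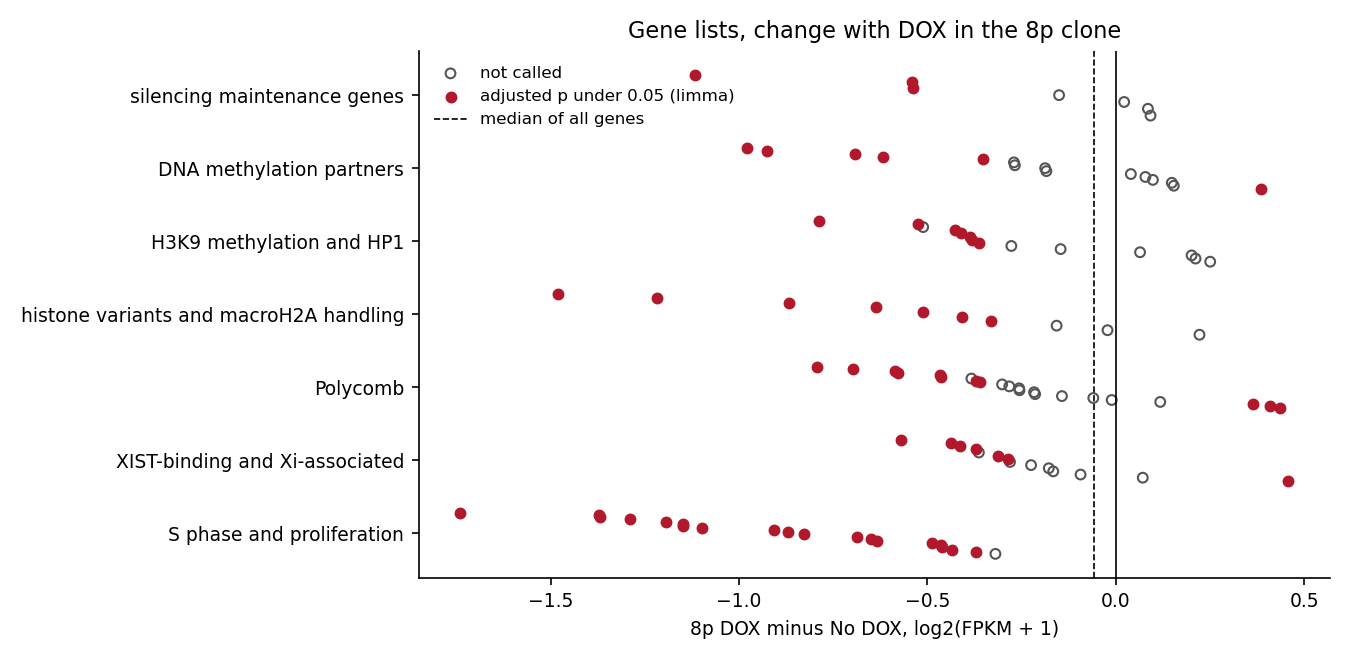
Difference between 8p DOX and No DOX on the log2(FPKM + 1) scale (horizontal) for each tested gene, by list (vertical); filled points passed limma's adjusted p of 0.05, open points did not, and the dashed line is the median of all genes at -0.06. The S phase genes reach from -1.74 to -0.32, and UHRF1 is the leftmost of the members at -1.12.

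The same question was asked of the 1p and 12q lines, with 1 library per condition in each. The 1p libraries are labelled 1A without and 2A with DOX, and the labels do not say whether they are the same clone. The DOX difference in 1p can thus also hold a difference between clones. None of the 7 tested members was called by limma in the fit with the integration site as a term, and none had an unadjusted p under 0.05. Of 11397 genes 1 was called, or 0.00877%, and 746 had an unadjusted p under 0.05. The residual spread in this test is the difference between the clones in their response, with 1 degree of freedom.

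UHRF1 was at 41.4 FPKM in 1p No DOX and 40.8 in 1p DOX, and at 26.2 in 12q No DOX and 18.8 in 12q DOX. It was nearly level in 1p (-0.02 on the log2 scale) and lower with DOX in 12q (-0.46), and the joint difference of -0.24 had an interval of -0.56 to 0.08. The S phase list was close to level in 1p (summed FPKM of 1326 and 1333). In 12q 16 of its 20 genes were lower with DOX (1222 and 1180), but the shift was small. Its median there was -0.06 against -0.02 over all genes, and 1 of the 20 fell past a 1.5-fold ratio of FPKM + 1. The part of this list in the UHRF1 value was not tested. Genes within 10 Mb of UHRF1 also had a lower median (-0.16) than all genes (-0.01) in this comparison.

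DNMT1 was at 42.9 FPKM in both 1p libraries, at 42.2 in 12q No DOX and at 36.8 in 12q DOX, so the 12q DOX library alone stood lower (interval of the joint difference -0.29 to 0.10). SMCHD1 was at 10.7 and 11.5 in 1p without and with DOX and at 9.88 and 9.63 in 12q. Its joint difference of 0.03 had an interval of -0.18 to 0.25. The response of 8p was not tested against that of 1p or 12q, since they lie in separate tables.

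H2AFY was at 118 and 110 FPKM in 1p without and with DOX and at 104 and 108 in 12q, and its interval was -0.20 to 0.15. CDYL was at 7.01 and 7.23 in 1p and at 11.5 in both 12q libraries. DNMT3A was at 1.87 and 1.73 in 1p and at 3.51 and 3.26 in 12q, a little lower with DOX in both lines. DNMT3B was at 2.26 and 2.04 in 1p and at 7.25 and 9.37 in 12q, lower with DOX in the first and higher in the second (interval -0.25 to 0.48).

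No member reached a 1.5-fold ratio of FPKM + 1 between DOX and No DOX in 1p, where 1.09% of genes did, or in 12q, where 2.91% did. The lists for partners, H3K9 methylation, histone variants, Polycomb, XIST-associated proteins and S phase held 0 genes called by limma in the joint fit. DNMT3L, the inactive cofactor of the de novo enzymes, was listed at 7.58 FPKM in 12q DOX of the NextSeq table and at 0 in the other 9 libraries; it was picked out after its values were seen. The same library held the epithelial genes EPCAM, CDH1 and ESRP1, all 3 listed at 0 in 12q No DOX, and the lower UHRF1 and DNMT1 and higher DNMT3B of 12q DOX rest on it; the part of these genes in the member values was not tested.

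**Figure D4:**
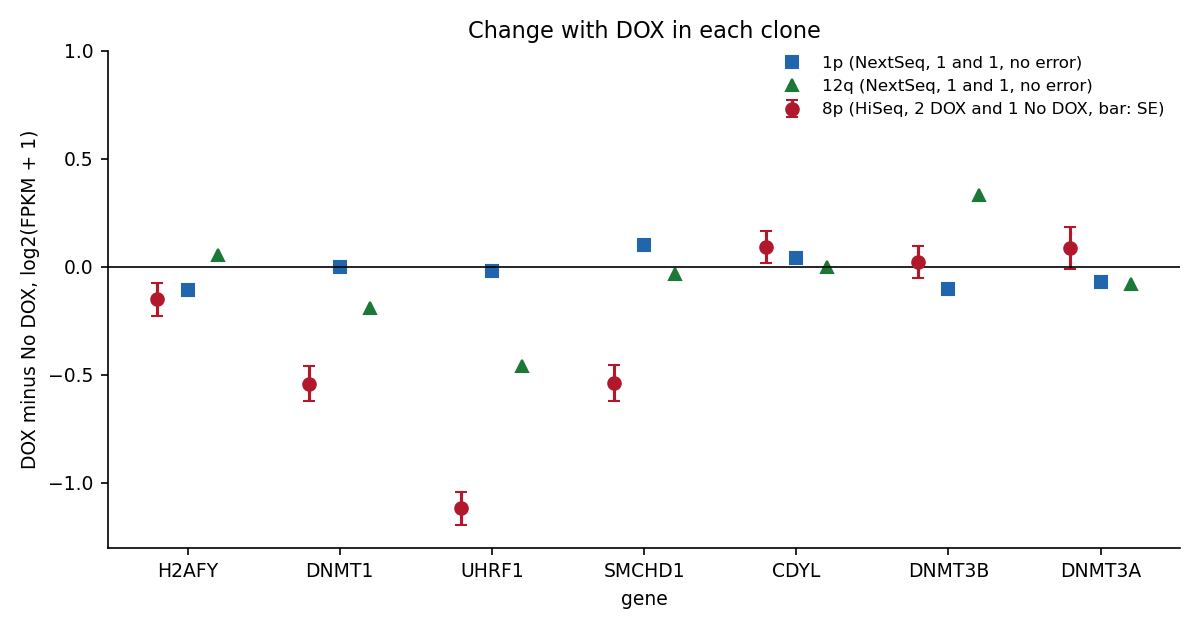
Difference between DOX and No DOX on the log2(FPKM + 1) scale (vertical) for each member in the 8p line (circles, with the SE), 1p (squares) and 12q (triangles), the latter 2 with 1 library per condition and no error. UHRF1 lies at -1.12 in 8p, -0.02 in 1p and -0.46 in 12q, and CDYL stays within 0.10 of 0 in all 3.

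The lines also differed from one another whatever the DOX state. In the NextSeq libraries 4 of 7 members were called between the 12q and the 1p line: DNMT3B, DNMT3A and CDYL were higher in 12q and UHRF1 was lower. Each line had 1 library without and 1 with DOX. The residual spread is again the difference between the lines in their DOX response, with 1 degree of freedom. The p values thus do not measure variation between clones or cultures of a line. Of all 11397 genes 17.9% were called higher in 12q by limma and 15.0% lower, against 3 and 1 of the 7 members. SMCHD1, DNMT1 and H2AFY did not pass the test, with differences of -0.17, -0.12 and -0.11. In a fit without the DOX term, added after the data were seen, leaving out 1p No DOX or 1p DOX left 0 members and 341 or 322 genes called, and without the filter DNMT3B and CDYL alone remained called among the members.

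DNMT3B showed the largest difference among the members. Its level in 12q was 3.87 times that in 1p as a ratio of mean FPKM, with both 12q libraries above both 1p libraries, and the log2 difference was 1.56 (SE 0.138, limma adjusted p = 0.00502). Of 88 tested genes within 10 Mb of DNMT3B on chromosome 20 (its own position is 30813851 to 30860823, hg18), 87 had a smaller difference, as did 98.6% of all genes. DNMT3A was 1.88 times as high in 12q (0.65, limma adjusted p = 0.0193). On chromosome 2, 74 of its 77 neighbours had a smaller difference, as did 92.5% of all genes. DNMT3B over DNMT3A FPKM was 1.21 and 1.18 in the 1p libraries and 2.07 and 2.87 in the 12q libraries.

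CDYL was 1.61 times as high in 12q (0.62, SE 0.0765, limma adjusted p = 0.00938). On chromosome 6, 43 of its 50 neighbours had a smaller difference, as did 91.9% of all genes. UHRF1 in 12q was at 0.548 of its 1p level (-0.86, SE 0.121, limma adjusted p = 0.0122). Of its 237 neighbours 5 lay below it, as did 2.5% of all genes. Of the 20 S phase and proliferation genes 10 were also called lower and 2 higher in 12q, where 15.0% and 17.9% of all genes were. CCNE2 was at -1.21, E2F1 at -0.88, MCM3 at -0.52 and CDC6 at -0.45. The 2 called higher were CCNE1 (0.35) and CDK1 (0.30), and 7 of the 20 lay above 0. The part of these 20 genes in the UHRF1 difference was not tested. The ratio of UHRF1 to DNMT1 FPKM was 0.964 and 0.952 in 1p and 0.622 and 0.511 in 12q.

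The HiSeq table held other libraries of these lines, 1 each with DOX. In it 12q DOX was above 1p DOX for DNMT3B (4.57 and 2.03 FPKM), CDYL (9.32 and 4.48) and DNMT3A (3.22 and 2.41), and below it for UHRF1 (27.05 and 35.0), the same directions as in the NextSeq table for all 4. DNMT3B and CDYL were past 1.5-fold, as 16.2% of all genes were. SMCHD1, DNMT1 and H2AFY had the opposite sign there (0.26, 0.04 and 0.14), with a median over all genes of 0.13; after rescaling they were at 0.13, -0.11 and -0.00.

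Cell type markers differed between 12q and 1p too. Of 8 mesenchymal markers 6 were called lower in 12q and 1 higher (median -0.56), with FN1 at -1.36 and S100A4 at -1.11, and of the markers of other cell types that passed the filter CDH5 (2.81) and CLDN4 (0.77) were higher; their part in the member differences was not tested. Without the 12q DOX library, in the fit without the DOX term, the same 4 members were called, with DNMT3B at 1.39, DNMT3A at 0.69, CDYL at 0.62 and UHRF1 at -0.63. Some partners of the members were called too, where 17.9% of all 11397 genes were called higher in 12q and 15.0% lower. Among 16 DNA methylation partners 3 were called lower in 12q (ZBTB38 at -0.71, MBD2 at -0.31 and CDCA7 at -0.28) and 0 higher. In the H3K9 list the SETDB1 cofactor ATF7IP (0.71) and the CDYL paralogue CDYL2 (0.49) were higher, and SUV39H1 (-0.53) and CBX1 (-0.29) lower. Among 9 histone variant and macroH2A handling genes 4 were lower (H2AFX at -0.61, H3F3B at -0.39, H2AFV at -0.29 and H2AFZ at -0.23). Of 22 Polycomb genes 6 were lower and 2 higher, led by BMI1 (-0.65), PCGF6 (-0.54), EZH1 (0.51) and PCGF5 (-0.49), and among the XIST-associated genes WTAP (-0.26) and CIZ1 (-0.25) were lower. Medians of these 5 lists lay between -0.11 and 0.06.

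**Figure D5:**
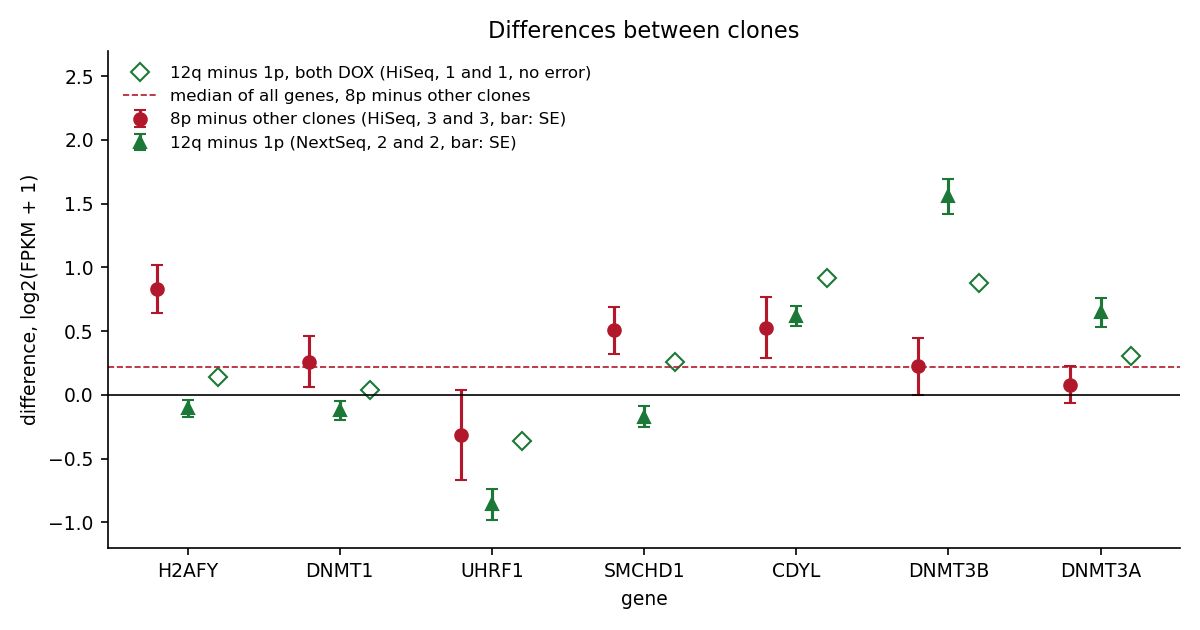
Differences between lines on the log2(FPKM + 1) scale (vertical) for each member: 8p minus the other HiSeq lines (circles, SE), 12q minus 1p in the NextSeq table (triangles, SE) and in the HiSeq table (diamonds, 1 library each, no error). DNMT3B and CDYL lie above 0 for 12q in both tables (1.56 and 0.88, 0.62 and 0.91), and the dashed line is the median of all genes for the 8p comparison at 0.22.

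In the HiSeq table the 3 libraries of the 8p line were set against those of 1p XIST, 1p vector and 12q. None of the 7 members was called by limma, where 5.17% of 11357 genes were, and 2 had an unadjusted p under 0.05, as did 3289 genes. The median of all genes was itself 0.22 higher in the 8p libraries, so differences are given beside it; rescaling turned the share of calls that were higher from 79.4% to 41.5%. Without the 12q library 1737 genes were called, with H2AFY and CDYL among them, and without the first 8p DOX library 29 were, with no member. The 8p libraries share the integration site and 1 of them had no DOX. They are not independent lines, so the SE and p values compare these libraries and do not measure variation between lines.

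H2AFY was at 112 to 127 FPKM in the 3 8p libraries and at 71.6, 51.0 and 79.2 in 1p DOX, 1p vector DOX and 12q DOX. The groups did not overlap, and the difference was 0.83 (SE 0.186), 0.61 above the median of all genes, with a limma adjusted p of 0.0502. Of 104 neighbours on chromosome 5, 97 had a smaller difference, as did 94.7% of all genes. SMCHD1 was at 9.48 to 14.7 in the 8p libraries and at 7.05, 7.36 and 8.62 in the others, also without overlap (0.51, adjusted p = 0.132). No overlap with 8p higher was found for 31.8% of all genes tested.

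CDYL was at 8.74 to 9.51 FPKM in the 8p libraries, and the 12q library lay in that range at 9.32 while 1p DOX (4.48) and the vector library (5.21) lay below. DNMT1 (0.26), DNMT3B (0.23) and DNMT3A (0.08) were near the median of all genes, and UHRF1 was at -0.31 with an interval of -1.14 to 0.52, the 8p No DOX library being at 35.5 FPKM and the 8p DOX pair at 15.5 and 16.2. In the 6 lists of partner and S phase genes 0 genes were called.

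The empty-vector line gave the only DOX-treated cells without XIST. Against it, 1p XIST DOX was past 1.5-fold for UHRF1 alone among the members (35.0 and 18.7 FPKM), where 20.7% of genes were past it. H2AFY (71.6 and 51.0), DNMT1 (46.0 and 36.5) and DNMT3B (2.03 and 2.95) differed by less, and SMCHD1 was at 7.05 and 7.36. The summed S phase list was 994 and 728, with 18 of 20 genes higher in 1p XIST, and the median over all genes was 0.09. In 12q XIST DOX against the vector, CDYL and H2AFY were past 1.5-fold (0.73 and 0.63), where 22.3% of genes were. The median of all genes was 0.23. After rescaling both members were under 1.5-fold (0.50 and 0.35). Each of these is a ratio of 1 library to 1 library and has no replicate check.

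The genes whose pattern was most like each member in the HiSeq libraries were found among 6905 genes that averaged 5 FPKM or more in both tables. For SMCHD1 they were NUF2 and USP16 (Pearson r of log2(FPKM + 1) 0.9998 and 0.998), with r of 0.913 and 0.892 over the 4 NextSeq libraries. For H2AFY they were SGK1 and PCYOX1 (0.999 and 0.998, then 0.920 and 0.466), and for DNMT1 RBM22 and TUBB (0.997 and 0.996, then 0.649 and 0.934). UHRF1 was nearest to ANKRD40 and MEX3D (0.997 and 0.996, then 0.968 and 0.875). For DNMT3B they were ZNF281 and TCEAL8 (0.994 and 0.992, then 0.992 and 0.991), and for CDYL VPS25 and PLA2G16 (both 0.998, then 0.956 and 0.947). DNMT3A varied by less than 1.5-fold in the HiSeq table and was not matched. With 6 points that share libraries, and 3 from the 8p line, a high r is a description only.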

How the data were processed

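Of the 16 samples, 10 RNA libraries were used; the H3K27 ChIP samples were not analysed here. Per the labels and the study's methods, the authors aligned paired-end reads with TopHat (Bowtie) to hg18 and deposited Cufflinks FPKM per gene, in 1 table per sequencer, without pooling; versions and annotation are not given in the sources used here. Depth is unknown from FPKM, so no counting error is given. Rows with a symbol spoiled into a date (26 per table), repeated symbols (735 and 878) and missing values (2, NextSeq) were left out.

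Each table was tested on its own with limma 3.58.1 (R 4.3.3; eBayes with trend) on log2(FPKM + 1), which understates changes of low genes, for genes averaging 1 FPKM or more, with Benjamini-Hochberg adjustment over all genes tested and a threshold of 0.05. The script was tested on simulated data, in which small changes were often missed. Of changes of 0.6 on the log2 scale, 10% were recovered in the 8p DOX test and 0% in 8p against the other lines. In the NextSeq tests 50% (DOX) and 38% (12q against 1p) were, with 7.82% and 7.93% of calls false. A member that was not called is thus not shown to be unchanged. Single-library ratios carry no test. Pearson r was computed without p. The members, gene lists and tests were chosen with earlier results of these data known. The text names all members, XIST, the 2 genes most like each member, and called genes of a list up to 6, otherwise the 4 with the largest difference; of the marker lists, a few genes are given. An item of the lists is not reported here. Alternatives were the pseudocount, filter, scaling, trend, model terms, baseline and left-out libraries.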

Additional observations from a re-analysis of the deposited data

Results flagged for a closer look

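In the NextSeq libraries 3 members moved in opposite directions with DOX in the 1p and the 12q line. The response in 12q minus that in 1p was -0.13 on the log2(FPKM + 1) scale for SMCHD1, 0.16 for H2AFY and 0.43 for DNMT3B. Each line had 1 library per condition, so the difference was not tested. After rescaling the libraries SMCHD1 had the same sign in both lines (0.11 in 1p and 0.0036 in 12q), which left H2AFY and DNMT3B with opposite directions. In DNMT3B the 12q response was 0.33 and was above that of 97.3% of the genes, while the 1p response was -0.10. The 12q response rests on the 12q DOX library, in which DNMT3L (7.58 FPKM), EPCAM (2.38), CDH1 (1.38) and ESRP1 (0.719), all 4 listed at 0 in 12q No DOX, were also read; their part in it was not tested. No group had the 4 libraries needed to look for a library far from the others.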

How the results depend on the processing

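Numbers are on the log2(FPKM + 1) scale unless they are counts. In 8p DOX against No DOX, 15 genes and 0 members were called with no filter on low genes and 160 genes and 0 members with the other DOX libraries as the baseline; with that baseline SMCHD1 (0.33), H2AFY (0.78) and DNMT1 (0.0815) turned to higher. Leaving out either 8p DOX library left no residual spread, so values only were obtained, and no member changed direction. In the joint NextSeq test of DOX, 0 genes were called with no filter, 2 without the trend and 0 without the site term, and 0 to 5 when each library was left out in turn without the site term. H2AFY turned to 0.0008 on rescaling and 0.0568 in the 12q line alone, SMCHD1 to -0.0332 in 12q alone and DNMT3B to -0.10 in 1p alone. With 1 library left out, and the lines then unbalanced, SMCHD1 ranged from -0.0852 to 0.15, H2AFY from -0.12 to 0.0691, DNMT1 from -0.20 to 0.0107, DNMT3A from -0.40 to 0.25, DNMT3B from -0.77 to 1.00, UHRF1 from -0.78 to 0.30 and CDYL from -0.30 to 0.34. In 8p against the other HiSeq lines, 320 genes were called with no filter and 160 without the No DOX library, and 1 member (H2AFY) with an average of at least 5 FPKM; with 1 library left out, 29 to 1737 genes and 0 to 2 members were called. DNMT3A there was at -0.11 after rescaling, and ranged from -0.0076 to 0.15 with 1 library left out. In 12q against 1p, 1971 genes and 2 members were called with no filter, and 322 to 3758 genes and 0 to 4 members with 1 library left out; SMCHD1 (0.26), H2AFY (0.14) and DNMT1 (0.0376) had the opposite sign in the HiSeq libraries. With a pseudocount of 0.1, 283 genes in 1p and 595 in 12q were past 1.5-fold between DOX and No DOX. The cause of these shifts was not tested beyond what is stated. No pair of compared groups has 2 replicate numbers in common, so no fit with a replicate block could be made.

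The main limits are 1 library for most groups, unknown depth, and line and run that cannot be separated.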
